A study of Rattus norvegicus with 30 samples.

Results

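The inhibitors of DNA binding Id1, Id2 and Id3 and the repressor Hes1 are 4 helix-loop-helix regulators, followed here through serum starvation of rat fibroblasts. They were taken by symbol from a table of 17353 genes, and all 4 passed the filter that left 8940 genes for testing. The cells were REF cells, a rat embryonic fibroblast line, so the groups are cultures of 1 line and not animals. The control group was left unstarved, and 9 groups went without serum, their durations being 2, 3, 4, 6, 8, 10, 12, 14 and 16 days. There were 3 libraries in each of the 10 groups, made from total RNA and described by the submitters as biological replicates. The labels name no other treatment, genotype or agent, and they do not say whether the replicates came from separate cultures, so the p-values measure the spread between these libraries, which may be technical. Values are FPKM, which corrects fragment numbers for transcript length and for the fragments mapped in each library, and allows levels of different genes to be set side by side.

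Id proteins have a helix-loop-helix but no basic region. They pair with E proteins, the shared partners of tissue-specific basic helix-loop-helix factors, and the pair does not bind DNA. Bone morphogenetic proteins (BMPs), acting through Smad1, Smad5 and Smad9, are the best known inducers of the Id genes, and growth factors in serum induce them as well. Hes1 keeps its basic region, binds DNA and recruits Groucho-related (Tle) corepressors. It is a direct target of Notch, whose cleaved receptor acts with the DNA-binding protein Rbpj, and Hes1 protein represses its own gene. In fibroblasts, Id proteins are known for promoting proliferation, and Hes1 for keeping quiescent cells able to return to the cycle.

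The 200 bases upstream of each gene's outermost annotated start are shown so that the DNA beside the Id genes, which moved together, can be set against that beside Hes1, which did not move with them. The sequences are from RefSeq on the GRCr8 build, and all 4 genes had an entry. They run 5′ to 3′ on the gene's own strand: Id1 at chr3:161671325-161671524 (plus), Id2 at chr6:47470996-47471195 (minus), Id3 at chr5:153656053-153656252 (plus) and Hes1 at chr11:84213046-84213245 (minus). Capitals mark matches, on either strand, to the Rbpj core GTGGGAA, the N box CACNAG to which Hes proteins bind, the BMP-responsive Smad element GGCGCC, the TATA box spelled TATAAA or TATATA, together with the CCAAT box.
Id1: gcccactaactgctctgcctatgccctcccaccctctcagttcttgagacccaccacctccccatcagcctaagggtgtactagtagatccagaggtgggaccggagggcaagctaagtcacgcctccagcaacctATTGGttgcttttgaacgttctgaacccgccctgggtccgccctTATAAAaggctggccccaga
Id2: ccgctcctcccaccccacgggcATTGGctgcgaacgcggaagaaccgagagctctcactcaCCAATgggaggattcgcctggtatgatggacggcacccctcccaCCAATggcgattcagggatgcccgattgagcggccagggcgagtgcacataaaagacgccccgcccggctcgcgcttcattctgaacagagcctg
Id3: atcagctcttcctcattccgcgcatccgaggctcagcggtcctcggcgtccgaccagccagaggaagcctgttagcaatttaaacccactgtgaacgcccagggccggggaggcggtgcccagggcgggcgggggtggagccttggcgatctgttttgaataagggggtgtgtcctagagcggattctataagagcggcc
Hes1: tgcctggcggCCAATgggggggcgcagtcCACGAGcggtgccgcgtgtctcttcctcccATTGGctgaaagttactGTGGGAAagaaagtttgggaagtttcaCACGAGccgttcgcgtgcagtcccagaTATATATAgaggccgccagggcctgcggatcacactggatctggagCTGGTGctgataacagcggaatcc

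Of the 4 windows, only that of Hes1 held GTGGGAA (1 match) and CACNAG (3 matches, 1 of them on the other strand). Among 33465 promoter windows of the same length, 4.18% held GTGGGAA and 30.9% held CACNAG. The Smad element GGCGCC was in none of the 4 windows and in 7.61% of all. Id1 held 1 TATAAA and 1 CCAAT, Id2 held 3 CCAAT, and Hes1 held 2 CCAAT and 2 overlapping TATATA. The shares of all windows were 10.4% for TATAAA, 4.27% for TATATA and 29.2% for CCAAT. The window of Id3 held none of the motifs searched. A match only describes the letters and is not a shown binding site, and the absence of one says only that those letters are not in these 200 bases.

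The label of the cells was checked against marker genes. Of 10 fibroblast markers, 6 averaged at least 1 FPKM: Col1a1, Col3a1, Pdgfrb, Vim, S100a4 and Lum. Pdgfra, Dcn and Thy1 averaged 0.647, 0.606 and 0.0233 FPKM, and Col1a2 is listed at 0 in every library. No endothelial and no blood cell marker of 5 each averaged 1 FPKM over all libraries. The summed blood cell list ran from 4.31 to 4.82 FPKM in control, from 0.261 to 0.497 at day 2 and from 0.0523 to 0.217 at day 16, with Csf1r reaching 4.62. Single markers of other cell types changed over the course. Of 5 epithelial markers only Krt8 reached that level, and the summed list ran from 10.7 to 12.9 FPKM in control and from 62.2 to 75.8 at day 16. Of 5 skeletal muscle markers only Des did, with sums of 81.6 to 95.0 in control, 9.05 to 11.1 at day 2 and 24.0 to 29.7 at day 16. Of 5 neural markers only Tubb3 did, with sums of 0.482 to 7.83. Cdh5, Kdr, Cd3e, Rbfox3, Sox10 and Actn2 are listed at 0 in every library, and Pecam1, Ptprc and Epcam averaged 0.0598, 0.00164 and 0.00216 FPKM. Col1a2 is also at 0, although Col1a1 averaged 2246 FPKM, so a 0 alone does not show that a cell type is absent. The part of these genes' cells in the results below was not tested. In whole-culture RNA, fewer cells of a kind and less RNA per cell cannot be told apart. Relative depth, read from the steps between low FPKM values with control library 2 set to 1, was 1.38 to 1.93 in the libraries numbered 1 and 0.455 to 1 in the others. The deeper library was the highest of its group in 7 of 10 groups for Id1, 4 for Id2, 5 for Id3 and 4 for Hes1.

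After 2 days without serum, Id1, Id2 and Id3 had fallen to between 3.18% and 15.1% of their control means, whereas Hes1 stood at 133%. Id1 was at 234, 176 and 200.4 FPKM in control libraries 1, 2 and 3, and at 26.9, 22.4 and 18.2 at day 2. Id2 was at 219, 242 and 235 FPKM in control and at 7.47, 8.15 and 6.52 at day 2. Id3, the most abundant of the 4, was at 915, 738 and 784 FPKM in control and at 134, 115 and 119 at day 2. For each Id gene, every day 2 library lay below every control library. The means fell from 203 ± 28.9 to 22.5 ± 4.32 FPKM for Id1, from 232 ± 11.7 to 7.38 ± 0.818 for Id2 and from 813 ± 91.6 to 123 ± 9.99 for Id3 (SD, n = 3). In a limma fit of log2(FPKM + 1) over all libraries, with Benjamini-Hochberg adjustment over the 8940 genes, Id1 fell by 3.13 ± 0.18 (log2, SE; adjusted p = 1.27e-13), Id2 fell by 4.80 ± 0.14 (adjusted p = 1.3e-19) and Id3 fell by 2.72 ± 0.11 (adjusted p = 4.48e-17). At this threshold of 0.05, 60.7% of all genes tested were called between control and day 2, 30.7% as lower and the rest as higher, so a call alone does not set a gene apart. By size, Id2 had the 19th lowest change of 8940 genes, Id1 the 130th and Id3 the 163rd.

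Hes1 was at 30.2, 29.3 and 28.2 FPKM in control libraries 1, 2 and 3, and at 36.4, 40.6 and 40.0 at day 2. Every day 2 library lay above every control library. The mean went from 29.3 ± 1.01 to 39.0 ± 2.27 FPKM, a change of 0.40 ± 0.16 (log2; limma, adjusted p = 0.0326), which ranked 2285th from the highest of the 8940 changes. This call was close to the threshold. It was lost when the libraries were rescaled to the same sum (adjusted p = 0.0607), and when any single control library, day 2 library 2 or day 2 library 3 was left out, with changes between 0.37 and 0.45 over all single-library omissions.

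**Figure D1:**
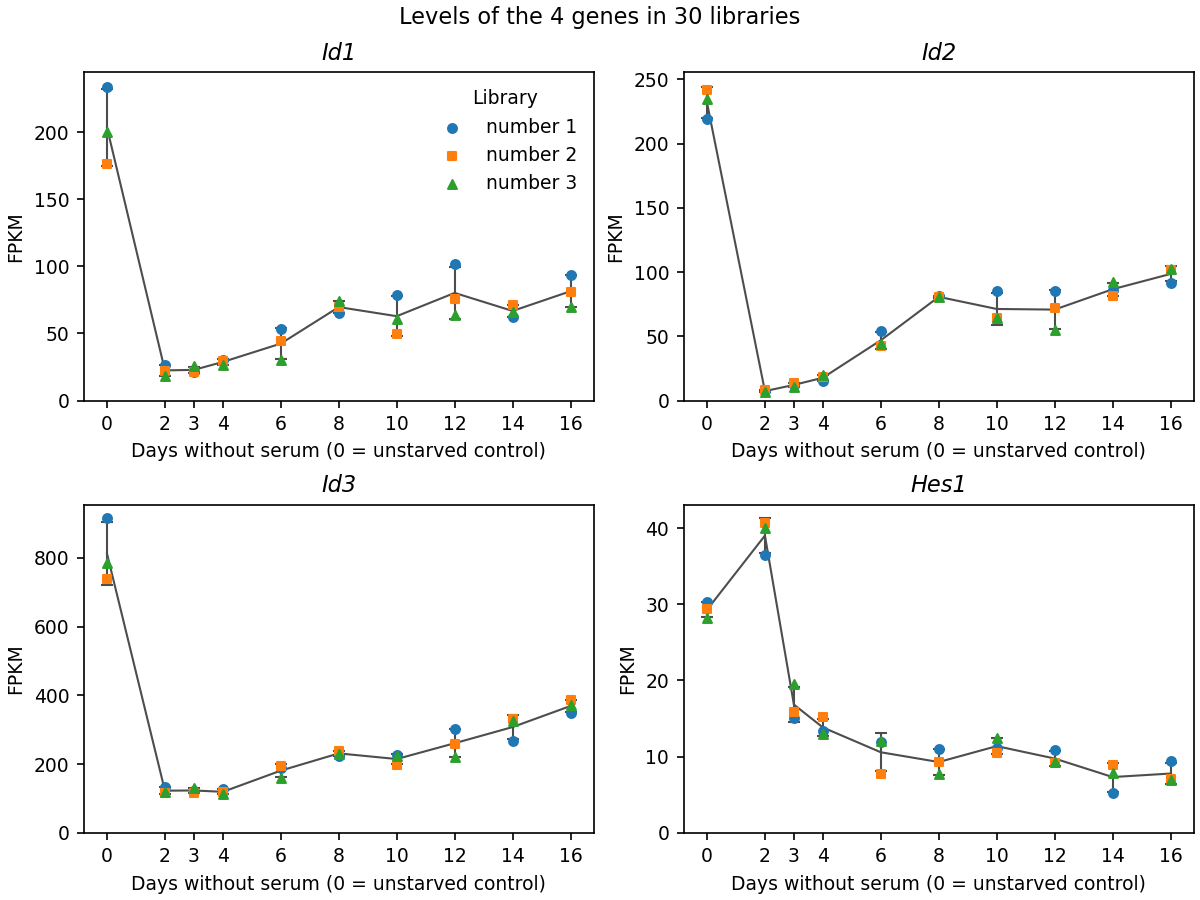
FPKM of Id1, Id2, Id3 and Hes1 in each of the 30 libraries (points) against days without serum, with day 0 the unstarved control; symbols mark library numbers 1, 2 and 3, lines join group means with bars of ± 1 SD, and each panel has its own linear vertical axis. The Id genes drop at day 2 and climb later without reaching the control libraries, and Hes1 is highest at day 2 (39.0 FPKM) and lowest at day 14 (7.32 FPKM).

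After day 2 the Id genes rose again, Id2 from day 3 and Id1 and Id3 later, and Hes1 declined. Id2 was at 12.0, 14.0 and 10.5 FPKM in libraries 1, 2 and 3 of day 3, and at 15.0, 18.7 and 19.6 at day 4. At day 6 it was at 54.5, 42.4 and 44.0 FPKM, and at day 8 at 81.5, 80.4 and 80.2. Each of these groups lay wholly above the group before it. Id2 was the member with a call at each of these steps in the same fit: 0.65 ± 0.14 (log2) from day 2 to 3 (adjusted p = 0.00115), 0.51 ± 0.14 from day 3 to 4 (adjusted p = 0.0319), 1.35 ± 0.14 from day 4 to 6 (adjusted p = 1.62e-07) and 0.78 ± 0.14 from day 6 to 8 (adjusted p = 0.00154). Of all genes, 16.4%, 3.39%, 9.91% and 1.44% were called at these 4 steps, and the change of Id2 from day 4 to 6 was the 9th highest of 8940. The call from day 3 to 4 was lost with a pseudocount of 5 (adjusted p = 0.0650) and under both rescalings (adjusted p = 0.145 and 0.0792). It was also lost without day 3 library 1 or 3 or day 4 library 2 or 3, with adjusted p between 0.0910 and 0.186.

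After day 8 the course of Id2 was flatter. It was at 85.4, 64.5 and 63.9 FPKM at day 10, and at 85.5, 71.7 and 55.2 at day 12. At day 14 it was at 86.1, 81.7 and 92.1 FPKM, and at day 16 at 91.8, 102 and 102. Days 8, 10 and 12 overlapped with one another, and none of the 4 steps after day 8 was called (adjusted p between 0.317 and 0.954), steps at which 1.52%, 3.37%, 3.58% and 1.94% of all genes were. Day 16, at 98.5 ± 5.87 FPKM or 42.5% of the control mean, was still below every control library.

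Id1 rose later than Id2. It was at 21.5, 21.4 and 25.7 FPKM at day 3 and at 30.6, 29.2 and 26.6 at day 4. It was at 53.1, 44.3 and 29.98 FPKM at day 6, and at 65.2, 69.5 and 74.2 at day 8. The day 3 libraries overlapped with those of day 2, and day 6 library 3 lay within the range of day 4. The change from day 2 to 3 was 0.04 ± 0.18 (log2; adjusted p = 0.928). The step from day 6 to 8 was called at 0.74 ± 0.18 (adjusted p = 0.0416), but not without the filter on low values (adjusted p = 0.0690), under either rescaling (adjusted p = 0.141 and 0.128), or without day 6 library 2 or 3 or any single day 8 library. The step from day 4 to 6 did not pass (0.51 ± 0.18, adjusted p = 0.0865), and did when day 6 library 3 was left out (0.74, adjusted p = 0.0137). With a replicate block the step from day 4 to 6 also passed (adjusted p = 0.0282), so at which of these steps Id1 was called varied with the libraries and the fit.

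From day 10 on, Id1 showed no further called step. It was at 78.8, 49.2 and 60.6 FPKM at day 10, and at 101, 75.7 and 63.5 at day 12. It was at 62.6, 71.5 and 66.3 FPKM at day 14, and at 93.7, 80.9 and 69.9 at day 16. These groups overlapped throughout, and the adjusted p of the steps after day 8 lay between 0.336 and 0.807. Day 16 averaged 81.5 ± 11.9 FPKM, 40.1% of the control mean.

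Id3 stayed at its day 2 level for longest. It was at 122, 117 and 131 FPKM at day 3 and at 126, 119 and 112 at day 4, overlapping with day 2. At day 6 it was at 190 (library 1), 194 and 159 FPKM, and at day 8 at 224, 239 and 230.1. Every day 6 library was above every day 4 library, and every day 8 library above every day 6 library. The step from day 4 to 6 was called (0.59 ± 0.11, log2; adjusted p = 0.000374), whereas that from day 6 to 8 did not pass (0.36 ± 0.11, adjusted p = 0.113). It was at 225, 197 and 222 FPKM at day 10, and at 302, 258 and 221 at day 12. At day 14 it was at 268, 330 and 325 FPKM, and at day 16 at 349, 385 and 373. Day 16 lay wholly above day 14, at 369 ± 18.4 FPKM or 45.4% of the control mean, although no step after day 8 was called (adjusted p between 0.165 and 0.777). The step from day 10 to 12 passed without day 12 library 3 (0.38, adjusted p = 0.0481), and that from day 12 to 14 with libraries numbered 2 and 3 only (0.45, adjusted p = 0.0138).

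Over the starved libraries as a whole, all 3 Id genes rose. The fitted straight-line change over 14 days, on log2(FPKM + 1), was 1.91 ± 0.20 for Id1 (limma, adjusted p = 2.98e-09), 3.33 ± 0.33 for Id2 (adjusted p = 1.9e-09) and 1.64 ± 0.10 for Id3 (adjusted p = 7.82e-14). Of all genes, 55.5% were called on this measure, 26.6% higher and 28.9% lower. After rescaling to the same sum the split of calls was 1573 higher and 3256 lower, against 2377 and 2587, and the median of all genes moved from -0.02 to -0.14, with the Id genes still called higher. Id2 had the 6th highest of the 8940 fitted changes, Id1 the 55th and Id3 the 92nd. In a fit of days 8 to 16 alone, Id3 was still called, and the slopes of Id1 (0.38, limma, adjusted p = 0.325) and Id2 (0.60, adjusted p = 0.0809) did not pass. These slopes are scaled to 14 days, so they are larger than the fitted changes within days 8 to 16. Day 16 against day 2 gave 1.82 ± 0.18 for Id1, 3.57 ± 0.14 for Id2 and 1.58 ± 0.11 for Id3, with adjusted p of 9.97e-09, 4.44e-17 and 3.44e-12. On that contrast 41.2% of genes were called.

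**Figure D2:**
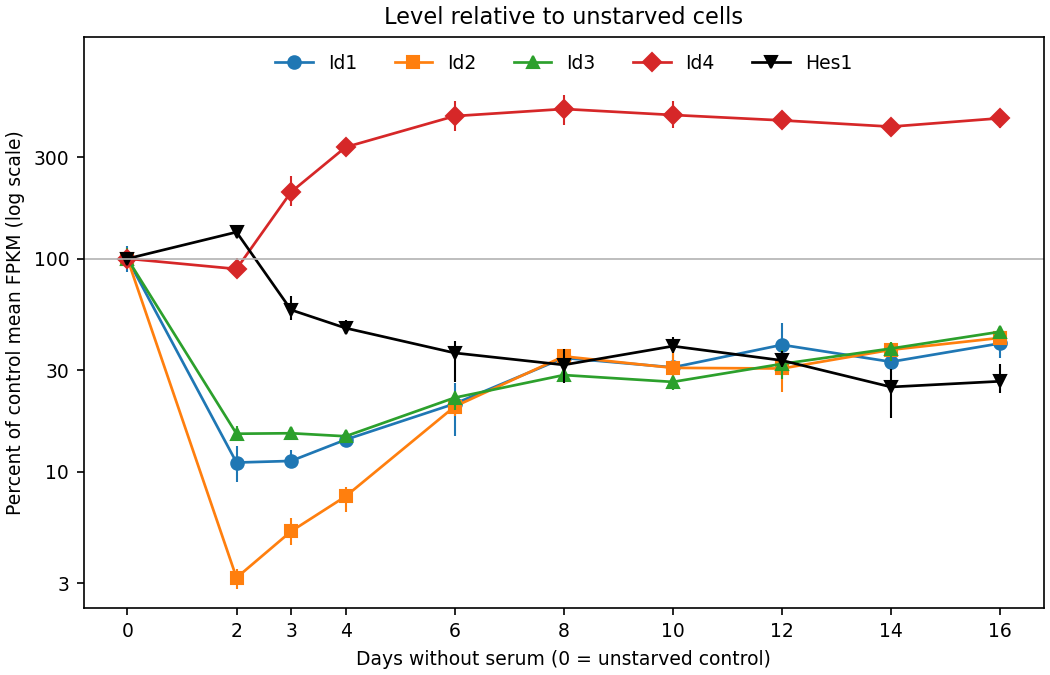
Group means of Id1, Id2, Id3, Hes1 and Id4 as a percentage of the control mean (log vertical axis) against days without serum, with bars from the lowest to the highest library and the control level drawn as a line at 100%. Id2 falls furthest, to 3.18% at day 2, and the 3 Id genes lie between 40.1% and 45.4% at day 16, while Hes1 crosses them downward and Id4 rises to 504% at day 8.

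Id2 and the other Id genes differed in how far they fell. On log2(FPKM + 1), Id1 minus Id2 averaged -0.20 in control (-0.45 to 0.09 over the libraries) and 1.47 at day 2 (1.35 to 1.72). Id2 minus Id3 averaged -1.80 in control (-2.06 to -1.61) and -3.88 at day 2 (-3.99 to -3.67). Neither pair of ranges overlapped. The shift was 1.67 for Id1 against Id2, -2.08 for Id2 against Id3, and -0.41 for Id1 against Id3. Each had an exact two-sided permutation p of 0.1 (n = 3 against 3; adjusted p = 0.1 over the 6 pairs of members), the smallest that this design allows, so it cannot pass 0.05. The size of the 3 shifts depended on the pseudocount: with 5 in place of 1 they were 1.33, -1.58 and -0.25.

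These gaps closed by day 6. Id1 minus Id2 went from 0.86 at day 3 and 0.67 at day 4 to -0.17 at day 6, and lay between -0.37 and 0.17 on average at every later time. Id2 minus Id3 went from -3.24 at day 3 to -2.69 at day 4 and -1.93 at day 6. From day 8 on it averaged between -1.89 and -1.51, beside -1.80 in control. Over the 27 starved libraries, the difference between Id1 and Id2 changed by -1.42 over 14 days, and that between Id2 and Id3 by 1.69. Both had a two-sided permutation p of 1e-05 (100000 permutations; adjusted p = 1e-05 over 6 pairs), the smallest that these permutations can give. For Id1 against Id3 the change was 0.27 (permutation p = 0.109, adjusted p = 0.109), and between 0.20 and 0.38 with single libraries left out. It passed only without day 16 library 3 (0.38, adjusted permutation p = 0.0333).

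**Figure D3:**
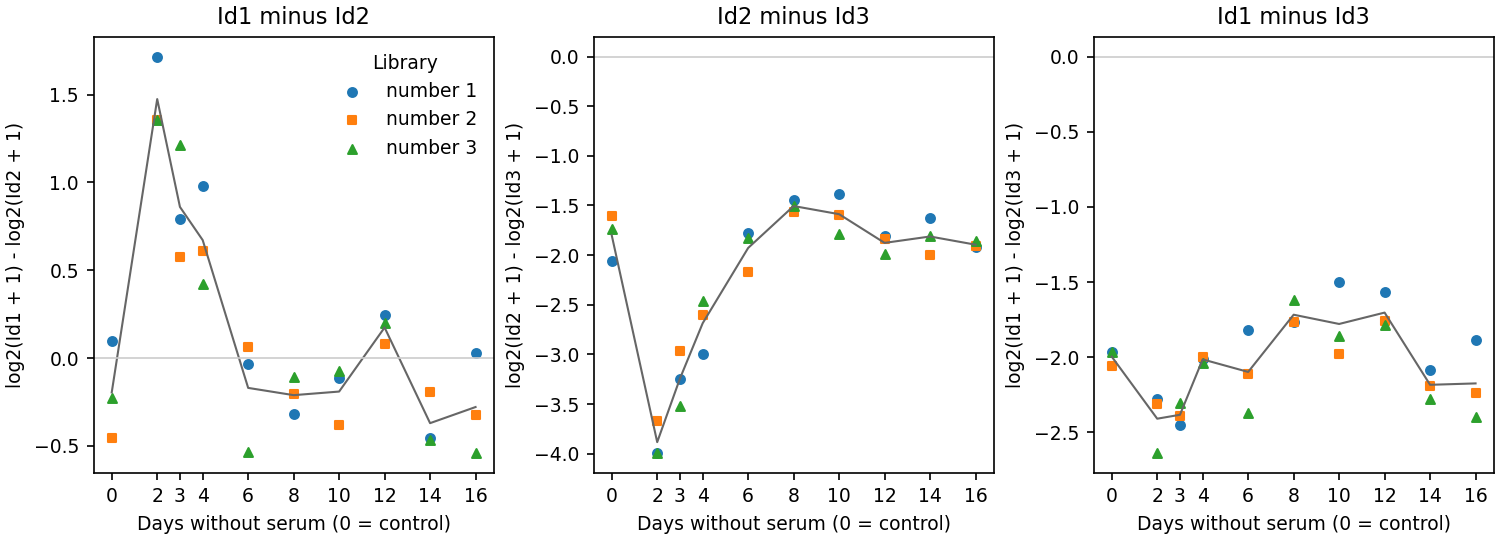
Differences between pairs of Id genes within each library, in log2(FPKM + 1) units, against days without serum (points are libraries, with symbols for library numbers 1, 2 and 3, lines join group means, day 0 is control, and each panel has its own vertical axis). Id2 minus Id3 dips from -1.80 in control to -3.88 at day 2 and is back at -1.93 by day 6, and Id1 minus Id3 stays between -2.41 and -1.70 on average.

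Id4, the remaining Id gene, had no called fall at day 2 and rose afterwards. It averaged 21.8 ± 0.220 FPKM in control and 19.5 ± 2.18 at day 2, and this difference did not pass (-0.16 ± 0.12, log2; adjusted p = 0.283). It then averaged 44.8 ± 7.49 at day 3, 72.8 ± 3.42 at day 4, 102 ± 16.9 at day 6 and 110 ± 17.3 at day 8. At day 16 it was at 99.5 ± 9.03 FPKM, 456% of control. Its step from day 2 to 3, picked after its values were seen, was called (1.15 ± 0.12, adjusted p = 2.08e-07). So was its change over days 2 to 16 (1.52 ± 0.32, adjusted p = 0.000219). In the same table Id3 was 37.2 times as abundant as Id4 in control by FPKM (33.6 to 41.7 within single libraries) and 3.71 times at day 16 (3.35 to 4.32), a ratio formed after the values were seen.

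Hes1 took the opposite course. It was at 15.1, 15.9 and 19.5 FPKM in libraries 1, 2 and 3 of day 3, and at 13.4, 15.2 and 13.0 at day 4. It was at 11.9, 7.72 and 12.0 FPKM at day 6, and at 11.0, 9.24 and 7.66 at day 8. All day 3 libraries lay below both control and day 2, and day 6 lay wholly below day 4. It was at 11.1, 10.5 and 12.5 FPKM at day 10, and at 10.9, 9.10 and 9.30 at day 12. At day 14 it was at 5.22, 8.92 and 7.82 FPKM, and at day 16 at 9.37, 7.10 and 6.88. Day 14 lay wholly below day 12, and the remaining neighbouring times from day 6 on overlapped.

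The fall from day 2 to day 3 was the only step of Hes1 that was called (-1.17 ± 0.16, log2; limma, adjusted p = 6.79e-06), and it was the 42nd lowest change of the 8940 genes. After it, the mean went from 16.8 ± 2.35 FPKM at day 3 to 7.78 ± 1.38 at day 16, 26.6% of control. The fitted change over days 2 to 16 was -1.56 ± 0.24 (adjusted p = 3.7e-06). Within days 8 to 16 the slope, scaled to 14 days, was -0.74 and did not pass (limma, adjusted p = 0.0719). Day 16 against day 2 gave -2.20 ± 0.16 (adjusted p = 1.95e-11), the 48th lowest of 8940. Between Hes1 and each Id gene, the within-library difference changed by 3.47 for Id1, 4.89 for Id2 and 3.20 for Id3 over 14 days (permutation p = 1e-05 and adjusted p = 1e-05 for each, the smallest possible).

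Against control, all 4 members were called at each of the 9 starved times. The share of all genes called was 60.7% at day 2, 65.1% at day 3, 63.5% at day 4, 66.4% at days 6, 12 and 14, 67.9% at day 8, 67.3% at day 10 and 67.5% at day 16. The Id genes were lower at all 9 times, and Hes1 was higher at day 2 and lower at the other 8. At day 16 the changes were -1.31 ± 0.18 for Id1, -1.23 ± 0.14 for Id2, -1.13 ± 0.11 for Id3 and -1.80 ± 0.16 for Hes1 (adjusted p of 7.85e-07, 1.29e-08, 5.6e-10 and 2.45e-10). These comparisons share the control libraries.

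The order of the levels shows which neighbours were separated. For Id1 the order was control, day 16, 12, 8, 14, 10, 6, 4, 3 and 2, and 7 of the 9 neighbouring pairs overlapped, with gaps only below control and between days 4 and 3. For Id2 it was control, day 16, 14, 8, 10, 12, 6, 4, 3 and 2, and only 3 of 9 pairs overlapped (days 16 and 14, 8 and 10, and 10 and 12). For Id3 it was control, day 16, 14, 12, 8, 10, 6, 3, 2 and 4, with 5 of 9 overlapping. Hes1 ran from day 2 through control, day 3, 4, 10, 6, 12, 8 and 16 to day 14, with 6 of 9 overlapping. Ranked by FPKM among the 8940 genes, Id3 went from 130th in control to 784th at day 2 and 256th at day 16. Id2 went from 430th to 6541st and back to 981st, and Id1 from 479th to 3612th and 1186th. Hes1 went from 3143rd to 2360th and then to 6372nd.

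Genes with the most similar course were picked by the correlation of the 10 group means of log2(FPKM + 1), as a description of 10 points that share their libraries. For Id2 the closest was Cd200, a membrane glycoprotein (r = 0.989), at 150 FPKM in control, 19.5 at day 2, 74.0 at day 8 and 92.2 at day 16. Nop14 (r = 0.971) and Pcid2 (r = 0.969) followed, with smaller falls (Nop14 16.5 to 11.8 FPKM by day 2). For Id1 the closest were Tomm34 (r = 0.969), Id3 (r = 0.968) and Smpdl3b (r = 0.965). For Id3 they were Mybbp1a (r = 0.975), Cactin (r = 0.971) and Sssca1 (r = 0.970). The correlation takes no account of the size of a change. By day 2, Tomm34 went only from 24.2 to 16.7 FPKM and Mybbp1a from 38.1 to 27.9. For Hes1 they were Baiap2 (r = 0.980), Cmpk1 (r = 0.979) and Meaf6 (r = 0.975). Baiap2, an adaptor protein of the actin cytoskeleton, was at 26.6 FPKM in control, 32.5 at day 2, 7.86 at day 8 and 6.59 at day 16. Over all 10 group means, Hes1 correlated at r = -0.181 with Id1, -0.403 with Id2 and -0.0796 with Id3, and over the 9 starved means alone at -0.828, -0.910 and -0.795. Id4 correlated with Id1, Id2 and Id3 at 0.0829, 0.309 and -0.0684 over all 10 means, and at 0.806, 0.893 and 0.680 over the 9 starved means. With Hes1, Id4 correlated at -0.955 over all 10 means and at -0.943 over the 9 starved means.

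On the Notch side, most genes called at day 2 were higher, with inhibitors of the pathway among them. Of 32 Notch pathway genes listed, 22 were tested. Day 2 brought 12 rises and 1 fall, with 9 genes not passing, where 60.7% of all genes were called, 30.7% as lower. The median change was 0.36 (log2), against 4.36e-05 over all genes tested. Under upper quartile rescaling the median of all genes was 0.11. Jag1, the tested ligand, rose from 15.6 to 98.9 FPKM (2.60 ± 0.12, adjusted p = 1.93e-15). The receptor Notch1 rose from 11.9 to 18.4 FPKM (0.62 ± 0.18, adjusted p = 0.00412), a call lost without control library 1 (adjusted p = 0.0609). Notch2 (0.30 ± 0.17, adjusted p = 0.125) and Rbpj (-0.22 ± 0.17, adjusted p = 0.273) did not pass. Ncstn, a subunit of the gamma-secretase that cleaves Notch, rose (0.70 ± 0.05, adjusted p = 6.02e-12), and Lfng, which modifies Notch receptors with sugars, fell by 1.45 ± 0.13 (adjusted p = 4.89e-10). Nrarp, a Notch target that feeds back on the pathway and was chosen after its values were seen, rose from 8.59 to 11.3 FPKM (0.36 ± 0.11, adjusted p = 0.00520). Of the 4 pathway inhibitors tested, Nrarp among them, 3 rose.

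From day 2 to day 3, the step at which Hes1 fell, 3 Notch genes rose, 2 fell and 17 did not pass, where 16.4% of all genes were called. The genes given for this step were chosen after their values were seen. Notch1 fell by 0.85 ± 0.18 (log2; adjusted p = 0.00118) and Nrarp fell by 0.72 ± 0.11 (adjusted p = 1.87e-05), while Jag1 rose further to 176 FPKM (0.83 ± 0.12, adjusted p = 2.61e-05). Hes6, the other Hes gene tested and known as an antagonist of Hes1, had risen from 92.6 to 145 FPKM at day 2 (0.64 ± 0.10, adjusted p = 8.76e-06) and fell to 77.5 at day 3 (-0.89 ± 0.10, adjusted p = 7.45e-07). Over days 2 to 16, 3 Notch genes rose and 9 fell, 10 not passing, where 55.5% of all genes were called. Their median was -0.22 against -0.02 over all genes. Notch1 fell by 1.38 ± 0.19, Notch2 fell by 0.65 ± 0.10, the coactivator Maml1 fell by 0.62 ± 0.08 and Rbpj fell by 0.36 ± 0.12, with adjusted p of 7.58e-07, 4.96e-06, 1.37e-07 and 0.00919. Jag1 did not pass on the straight line (0.23 ± 0.18, adjusted p = 0.296). Its level was higher at day 16 than at day 2 (0.94 ± 0.12, adjusted p = 8.98e-07), at 190.2 against 98.9 FPKM. Within days 2 to 8 its slope was upward (1.86 when scaled to 14 days, limma, adjusted p = 0.00837), with a mean of 200.2 FPKM at day 8. Nrarp fell by 0.80 ± 0.16 (adjusted p = 8.1e-05), Lfng fell by 0.69 ± 0.10 (adjusted p = 7.63e-07) and Hes6 fell by 1.40 ± 0.17 (adjusted p = 8.03e-08). Hey1, Heyl and the 5 other Hes and Hey genes listed had means under 1 FPKM.

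**Figure D4:**
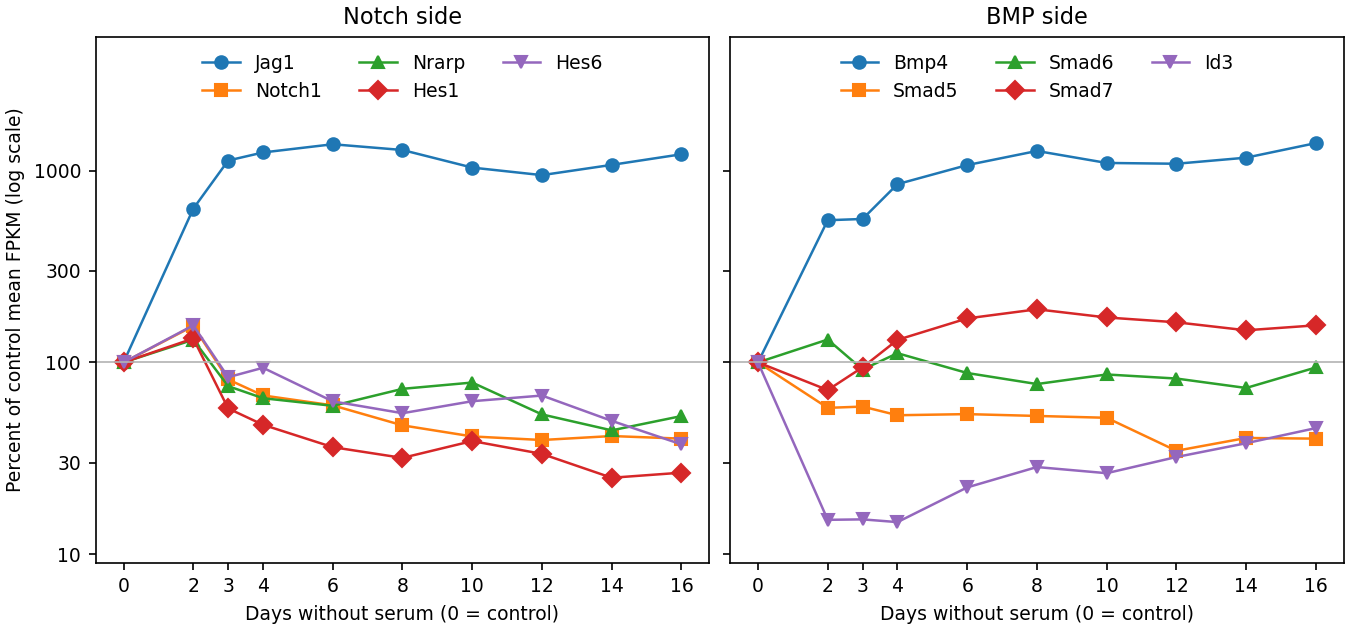
Group means as a percentage of the control mean (log vertical axis) against days without serum, for Notch-side genes (left: Jag1, Notch1, Nrarp, Hes1, Hes6) and BMP-side genes (right: Bmp4, Smad5, Smad6, Smad7, Id3). Notch1, Nrarp, Hes6 and Hes1 are all above 100% at day 2 and below it at day 3, while Jag1 and Bmp4 stay above it throughout; Id3 is lowest at day 4.

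On the BMP side, at day 2 the tested ligand was higher while 3 of the 4 Smads that carry its signal were lower. Of 34 BMP pathway genes listed, 18 were tested, and day 2 brought 8 rises and 5 falls, with 5 genes not passing, where 60.7% of all genes were called. The median change was 0.35 (log2), against 4.36e-05 over all genes. Bmp4 rose from 11.9 to 65.6 FPKM (2.38 ± 0.10, adjusted p = 8.12e-17) and, over days 2 to 16, on to 166 (1.12 ± 0.15, adjusted p = 3.82e-07). None of the 4 signal transducers rose, and 3 fell: Smad5 from 29.9 to 17.3 FPKM (-0.76 ± 0.14, adjusted p = 4.49e-05), Smad9 from 2.05 to 0.435 (-1.02 ± 0.32, adjusted p = 0.00779) and Smad1 from 17.6 to 15.0 (-0.22 ± 0.08, adjusted p = 0.0272). Smad1, Smad5 and Smad9 were picked out after their values were seen. Smad1 lost its call under upper quartile rescaling (adjusted p = 0.157) and without control library 2 or 3 or day 2 library 1, and Smad9 without control library 2 (adjusted p = 0.0720).

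The inhibitory Smads, which are themselves BMP targets, went different ways at day 2. Smad6 was at 27.9 FPKM in control and 36.8 at day 2 (0.38 ± 0.15, adjusted p = 0.0301), with the call lost under rescaling to the same sum and without control library 2 or 3 or day 2 library 1 or 3. Smad7 fell by 0.43 ± 0.11 (adjusted p = 0.00145). Over days 2 to 16, Smad6 fell by 0.45 ± 0.14 (limma, adjusted p = 0.00866). This call was lost with libraries numbered 2 and 3 only (-0.41, adjusted p = 0.0670) and without day 2 (-0.25 when scaled to 14 days, adjusted p = 0.151). Smad7 rose over these days (0.74 ± 0.18, adjusted p = 0.00124). It averaged 7.14 FPKM at day 2, 18.8 at day 8 and 15.5 at day 16. Its day 16 mean was 156% of control, whereas Id1, Id2 and Id3 stayed below control. Among secreted antagonists, Nbl1 (1.41 ± 0.10, adjusted p = 5.48e-12) and Chrd (1.02 ± 0.11, adjusted p = 7.88e-09) rose at day 2, and Fst fell by 0.50 ± 0.16 (adjusted p = 0.00995). Over days 2 to 16, Twsg1 rose (0.66 ± 0.17, adjusted p = 0.0014; named after its values were seen) and Fst fell by 2.14 ± 0.34 (adjusted p = 5.43e-06), from 155 FPKM at day 2 to 19.2 at day 16. In that span, 4 BMP pathway genes rose, 9 fell, Smad4 among them (-0.38 ± 0.07, adjusted p = 1.36e-05), and the median of the 18 was -0.35, beside 26.6% of all genes called higher and 28.9% lower. Of the Smads lower at day 2, Smad9 rose in that span (1.14 ± 0.21, adjusted p = 4.08e-05), Smad5 fell by 0.61 ± 0.11 (adjusted p = 4.74e-05) and Smad1 did not pass (-0.01 ± 0.08, adjusted p = 0.894).

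Of 10 genes of the related TGF-beta pathway, 8 were tested. At day 2, 6 rose, none fell and 2 did not pass (median 0.82, log2), where 60.7% of all genes were called, 30.7% as lower. The 6 included the ligands Tgfb3 (1.31 ± 0.09, adjusted p = 1.92e-12) and Tgfb2 (1.35 ± 0.12, adjusted p = 1.91e-10) and the transducer Smad3 (0.64 ± 0.10, adjusted p = 5.18e-06). Over days 2 to 16, 1 rose, 5 fell and 2 did not pass (median -0.36), beside 26.6% of all genes called higher and 28.9% lower. Smad2 fell by 0.93 ± 0.08 (adjusted p = 1.39e-10) and Smad3 fell by 1.09 ± 0.14 (adjusted p = 1.58e-07), while the coreceptor Tgfbr3 rose (0.66 ± 0.13, adjusted p = 0.000127).

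Among the partners that Id proteins bind, Tcf3 and Myod1 fell at day 2. Of 16 basic helix-loop-helix partners listed, 5 were tested, and at day 2 none rose, 2 fell and 3 did not pass, where 30.7% of all genes were called lower. The E protein Tcf3 went from 202 to 140 FPKM (-0.52 ± 0.09, adjusted p = 1.28e-05), and Tcf12 (-0.24 ± 0.21, adjusted p = 0.331) and Tcf4 (0.25 ± 0.32, adjusted p = 0.506) did not pass. By mean FPKM, Id1, Id2 and Id3 together stood at 5.21 times the sum of Tcf3, Tcf4 and Tcf12 in control, at 0.869 times at day 2 and at 4.38 times at day 16. Within single libraries this ratio ran from 4.68 to 5.72 in control, from 0.769 to 0.989 at day 2 and from 4.28 to 4.59 at day 16, so day 2 overlapped with neither. The ratio was formed after the values were seen and carries no test. It leaves out Id4, which averaged 21.8 FPKM in control, 19.5 at day 2 and 99.5 at day 16. It therefore does not give the level of all Id genes against the E proteins. Myod1, the myogenic factor that Id proteins hold in check, fell from 237 to 3.51 FPKM at day 2 (-5.74 ± 0.24, adjusted p = 1.67e-16), beside the fall of the muscle marker Des given above. Twist1, a mesodermal factor, did not pass (-0.14 ± 0.09, adjusted p = 0.190). Over days 2 to 16, Tcf3 fell by 0.56 ± 0.08 (adjusted p = 1.06e-06) and Tcf12 fell by 0.46 ± 0.15 (adjusted p = 0.0116), against a median of -0.32 for the 5 genes.

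Bhlhe40, a repressor of the same wider family, rose from 5.31 to 16.3 FPKM at day 2 (1.46 ± 0.10, adjusted p = 2.72e-12). It fell to 6.59 FPKM at day 3 (-1.19 ± 0.10, adjusted p = 3.04e-09), averaged 35.2 at day 12 and was at 19.8 at day 16, 0.27 ± 0.10 above day 2 (adjusted p = 0.0360). Its straight-line change over days 2 to 16 was 1.39 ± 0.29 (adjusted p = 0.000215). Of the 5 Groucho-related genes listed (Tle1 to Tle4 and Aes), 1 rose at day 2 and 1 fell, where 60.7% of all genes were called. The riser was Tle2 (1.64 ± 0.21, limma, adjusted p = 3.38e-07) and the other Aes (-0.36 ± 0.10, adjusted p = 0.00224). Whether Hes1 recruits the products of these genes was not tested. Over days 2 to 16, Aes (0.67 ± 0.08, adjusted p = 1.03e-07) and Tle4 (0.65 ± 0.12, adjusted p = 3.27e-05) rose. Tle3 was among 2 that fell (-0.71 ± 0.07, adjusted p = 4.77e-09), where 55.5% of all genes were called.

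Cyclin-dependent kinase inhibitor genes, on which Id and Hes proteins are known to act through E proteins, Ets factors or their promoters, were mixed. Cdkn1a rose from 130 to 300 FPKM at day 2 (1.19 ± 0.13, adjusted p = 1.6e-08) and fell by 0.44 ± 0.11 over days 2 to 16 (adjusted p = 0.00163). Cdkn1b, known as a target that Hes1 represses, rose at day 2 (0.26 ± 0.10, adjusted p = 0.0366). This call was lost without control library 1 or day 2 library 2 or 3. Cdkn1b rose further over days 2 to 16, from 50.2 to 74.1 FPKM (0.44 ± 0.09, adjusted p = 0.000154). At the step at which Hes1 fell, Cdkn1b averaged 50.2 FPKM at day 2 and 47.0 at day 3. A link between Cdkn1b and Hes1 was not tested. Cdkn2a did not pass at day 2 (-0.21 ± 0.21, adjusted p = 0.418) and its straight-line change over days 2 to 16 did not pass (-0.54 ± 0.28, adjusted p = 0.104). It fell in between, from 56.5 FPKM at day 2 to 23.8 at day 3 (-1.20 ± 0.21, adjusted p = 0.000247), and was at 24.5 at day 16 (-1.15 ± 0.21 against day 2, adjusted p = 9.36e-05). The straight-line change passed with the log2 of day (-0.85, limma, adjusted p = 0.00714) and after rescaling to the same sum (-0.67, adjusted p = 0.0414). Scaled to 14 days, the slope also passed within days 2 to 8 (-3.10, adjusted p = 0.00248) and without day 16 (-0.91, adjusted p = 0.0250). The mean at day 8 was 16.1 FPKM. The Ets factors Ets2 and Ets1 both fell at day 2, Ets2 by 0.66 ± 0.15 and Ets1 by 0.46 ± 0.11 (adjusted p = 0.00066 and 0.00112), and Ets1 fell by a further 1.11 ± 0.15 over days 2 to 16 (adjusted p = 5.46e-07). Of the 6 genes of this list that were tested, 3 rose and 2 fell at day 2, and 2 rose and 3 fell over days 2 to 16, beside 60.7% and 55.5% of all genes called in either direction.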

How the data were processed

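RNA sequencing was analysed from 30 libraries, 3 in each of 10 groups. Per the submitters' processing notes, TopHat2 2.1.1, Cufflinks, Cuffnorm 2.2.1 and the rn6 build were used. The deposited values are FPKM per gene symbol. The scaling across libraries, the annotation and any filter are not given in the sources used here. The table gives no counts, so intervals based on counts are not given.

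Groups came from the sample labels. Genes with a mean of at least 1 FPKM (8940 of 17353) were analysed as log2(FPKM + 1) with limma 3.58.1 in R 4.3.3, with a mean-variance trend. Folds on this scale understate changes of low genes. Contrasts came from a fit of 10 group means, and the slope from the 27 starved libraries. The slope is given as the fitted change over 14 days, also where only part of the time course was fitted. Tests were two-sided, with Benjamini-Hochberg adjustment over all genes tested and a threshold of 0.05. Pairs of members were compared with permutation tests in scipy 1.17.1. The limma scripts were tested on simulated data.

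The members and gene lists were chosen with earlier results of these data known. Named genes were the 4 members, a fixed set and up to 3 genes per list with the smallest p among those called. The last were picked in day 2 against control and over days 2 to 16. Genes added later are marked as chosen after their values were seen. Named genes are also given in comparisons outside this rule, such as single steps and day 16 against day 2. Genes of similar course were the 3 with the highest r at a mean of at least 5 FPKM.

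What a replicate number stands for is not in the labels. Deviations of control and day 2 libraries of the same number from their group means correlated at 0.592, 0.209 and 0.188 across genes. All lay over 0.1, the rule for pairing. Days 3, 4, 12, 14 and 16 against control and day 16 against day 2 also met it. So did the steps from day 12 to 14 and from day 14 to 16, and the other comparisons did not. The main tests, permutation tests included, took no account of replicate number. Over all 45 pairs of groups the lowest values were 0.0773, -0.206 and -0.111. Alternatives were the pseudocount, the filter, 2 rescalings, a replicate block, libraries numbered 2 and 3 only, parts of the time course, and leaving out single libraries.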

Additional observations from a re-analysis of the deposited data

How the results depend on the processing

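The falls of Id1, Id2 and Id3 at day 2, their rises from day 2 to day 16 and the decline of Hes1 kept direction and call under each alternative run, apart from the parts of the time course given here. Within days 8 to 16, the slopes of Id1 (0.38), Id2 (0.60) and Hes1 (-0.74), scaled to 14 days, no longer passed. In that part 3021 genes were called on the slope (2838 within days 2 to 8, against 4964 over all starved times). Hes1 at day 2 was 0.40 but not called after rescaling to the same sum, and 0.37 to 0.45 with single libraries left out. Differences between members at day 2 moved with the pseudocount: Id2 minus Hes1 was -5.37 with 0.1 and -4.62 with 5, and with 5 Id1 minus Id2 was 1.33, Id1 minus Id3 -0.25 and Id2 minus Id3 -1.58. Over days, Id1 minus Id3 ranged from 0.20 to 0.38 with single libraries left out. Some changes that were not called reversed. Under upper quartile rescaling these were the step from day 2 to 3 of Id1 (-0.0010), Id3 (-0.028) and Bmp4 (-0.015) and the step from day 10 to 12 of Id2 (0.012). With single libraries left out, they ranged from -0.10 to 0.17, -0.038 to 0.074, -0.026 to 0.055 and -0.16 to 0.15. The step of Hes1 from day 14 to 16 was -0.23 with libraries numbered 2 and 3 only and -0.10 to 0.23 with single libraries left out, and Tcf12 at day 2 was -0.45 to 2.4e-05. Scaled to 14 days, slopes within days 8 to 16 reversed for Id4 (-0.31), Bhlhe40 (-0.75), Myod1 (-1.09), Smad6 (0.23), Smad7 (-0.51), Jag1 (-0.067) and Cdkn2a (0.79). On the same scale, slopes reversed within days 2 to 8 for Tcf4 (0.084) and Twist1 (-0.79), and without day 2 for Jag1 (-0.20) and Cdkn2a (0.13). The cause was not tested. With a replicate block, Hes1 at day 2 was 0.40 (limma, adjusted p = 0.0323), and the step of Id1 from day 4 to 6 (0.51) gained a call (adjusted p = 0.0282). The block changed no other call of the 4 members.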

Other observations

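Read counts were not part of the values used, and FPKM carries no count error, so precision rests on 3 libraries per group. Low genes such as Smad9 (0.435 FPKM at day 2) are the least certain. Messenger RNA was measured, not Id or Hes1 protein, and both kinds of protein are known to turn over quickly. Time points before day 2 are not analysed here, so the course of the fall of the Id genes and of the rise of Hes1 within the span up to day 2 is not described.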
